A study of Mus musculus with 32 samples.

Results

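The response of the lung to cisplatin was set against that of the spleen in the same strain, with 2 control and 2 cisplatin RNA-seq libraries per organ, 8 of the 32 samples of the series. The libraries were chosen by organ and assay alone, and the measurement was the number of reads on each of 25059 genes. All mice were C57BL/6J females of 6 to 7 months on a light and dark cycle. Treated mice received a single intraperitoneal dose of 10 mg cisplatin per kg at ZT1 (1 h after lights on) and were killed at ZT5, which is 4 h later and is also the time in the study's methods, although the sample labels give 2 h. Control mice received the same volume of 154 mM saline by the same route. The submitters state that the control and cisplatin annotation of exactly these 8 samples was exchanged in a later correction, and the corrected annotation was used.

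Cisplatin is a platinum drug that crosslinks neighbouring guanines in DNA. The adducts block RNA polymerase and activate the transcription factor p53, whose targets hold the cell cycle and can start apoptosis. An injected toxic drug also raises adrenal glucocorticoids, which act through the glucocorticoid receptor on a set of genes shared by most organs. The lung is made up of alveolar and airway epithelium, capillaries and stroma, with resident immune cells, whereas the spleen is a blood-filtering lymphoid organ, rich in B and T cells and, in the mouse, a site of red cell formation.

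Reads on genes ranged from 27662355 to 162270280 per library. The summed level of 25 lung epithelial genes was 79023 and 79218 CPM (counts per 1000000 reads on genes) in the lung controls and 81308 and 88529 in the lung cisplatin libraries, against 356 to 443 CPM in the 4 spleen libraries. The summed level of 20 B cell genes was 26309 to 42826 CPM in spleen and 1937 to 3281 CPM in lung, and both organ labels matched these markers. The 2 control libraries of each organ differed from each other far less than the cisplatin libraries did. Divided by its degrees of freedom, the chi-square between the 2 libraries was 2.75 in lung and 2.98 in spleen, against 89.3 and 134 for the 2 cisplatin libraries, where sampling of reads alone would give 1. Each control pair was therefore summed and counted as 1 sample, and the spread behind every test below comes from the cisplatin pairs, with the control assumed to vary like them. No label ties a library to an animal, so it cannot be told whether this spread is between animals. The study calls its replicates biological.

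Cdkn1a (ENSMUSG00000023067, chr17:29090976-29100727 in GRCm38, plus strand), which encodes the cell cycle inhibitor p21 and is the classical p53 target, served to check the corrected labels. Its level was 150 and 143 CPM in the lung controls and 503 and 587 CPM in the lung cisplatin libraries. In spleen it was 13.2 and 13.3 CPM in the controls and 39.5 and 34.1 CPM after cisplatin. Every library labelled cisplatin lay above every control of its organ. The rise passed the test in lung (log2 change 1.91 ± 0.21 (SE), edgeR adjusted p = 0.0228), while the spleen change of 1.44 ± 0.21 did not (adjusted p = 0.172). The lung change minus the spleen change, called the interaction below, was 0.46 ± 0.27 for Cdkn1a (adjusted p = 0.614).

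Of 19285 genes tested, 4 differed in their response between the organs, which is 0.0207% of the genes (edgeR quasi-likelihood test of the interaction, Benjamini-Hochberg adjusted p under 0.05). All 4 had a lower change in lung than in spleen: Cpb1, Reg1, Cela1 and Dmbt1. No gene passed with a higher change in lung. At an unadjusted p under 0.05 there were 1967 genes, 658 with the lung change above and 1309 with it below the spleen change, and DESeq2 on the same 6 samples called 126 above and 577 below. When every library was counted as a replicate, 2044 genes (11.3%) passed, 565 above (3.11%) and 1479 below (8.15%), while 23.4% of genes changed in lung and 10.5% in spleen. This larger count treats the 2 near-identical control libraries of each organ as independent samples. In the separate organ tests, 529 genes (2.74%) changed in lung, 23 upward and 506 downward, and 27 genes (0.14%) changed in spleen, 24 upward (0.124%) and 3 downward (0.0156%). A gene that passed in one organ only is not thereby shown to differ, and the interaction is given for the genes described most fully.

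The 4 genes with different responses are genes of the exocrine pancreas or of mucosal secretion. Cpb1 (carboxypeptidase B, ENSMUSG00000011463, chr3:20248264-20275733, minus strand) and Cela1 (an elastase, ENSMUSG00000023031, chr15:100674421-100687921, minus strand) are digestive enzymes. Reg1 (ENSMUSG00000059654, chr6:78422711-78428667, plus strand) encodes a protein secreted by acinar cells. Dmbt1 (ENSMUSG00000047517, chr7:131032053-131121630, plus strand) encodes a scavenger receptor protein of mucosal secretions. The promoters of Cpb1, Cela1 and Reg1, 250 bases before to 50 bases after the start, are shown here because these genes moved together in 1 organ. They are RefSeq sequences on GRCm38.p6, read 5′ to 3′ on the strand of the gene. Capitals mark CACCTG on either strand, the core of an element bound by the acinar factor PTF1, in Cpb1 (chr3:20275684-20275983, minus strand) and Cela1 (chr15:100687871-100688170, minus strand), and TATAAAA on either strand in Reg1 (chr6:78425733-78426032, plus strand).
Cpb1: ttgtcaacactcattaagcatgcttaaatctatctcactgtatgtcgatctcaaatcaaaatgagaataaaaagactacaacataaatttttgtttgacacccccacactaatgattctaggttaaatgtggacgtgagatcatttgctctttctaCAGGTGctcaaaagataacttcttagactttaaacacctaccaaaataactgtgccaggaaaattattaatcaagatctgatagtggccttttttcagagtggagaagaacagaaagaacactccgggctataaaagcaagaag
Cela1: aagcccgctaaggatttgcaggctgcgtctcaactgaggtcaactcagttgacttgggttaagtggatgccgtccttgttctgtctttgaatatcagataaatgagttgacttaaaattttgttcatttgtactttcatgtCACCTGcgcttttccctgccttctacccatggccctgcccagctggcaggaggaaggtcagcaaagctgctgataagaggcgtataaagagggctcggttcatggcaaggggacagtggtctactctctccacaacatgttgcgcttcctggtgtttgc
Reg1: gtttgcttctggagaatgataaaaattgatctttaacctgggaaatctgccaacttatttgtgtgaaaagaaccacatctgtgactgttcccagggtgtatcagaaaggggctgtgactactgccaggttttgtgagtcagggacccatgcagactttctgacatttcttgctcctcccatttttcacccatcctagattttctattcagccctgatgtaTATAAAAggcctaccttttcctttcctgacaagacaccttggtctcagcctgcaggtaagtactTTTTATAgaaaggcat
CACCTG began 94 bases before the start in Cpb1 and 109 bases before it in Cela1, and TATAAAA began 30 bases before it in Reg1, with a second match on the other strand 35 bases after it. TATAAAA is also present, unmarked, in Cpb1. CACCTG was in 9 of the 17 pancreatic genes with a promoter entry and in 22.6% of all 27025 genes with a promoter entry. It was also in 8 of the 13 B cell genes with an entry (61.5%), so it was not particular to the pancreatic genes. TATAAAA was in 3 of the 17 and in 6.39% of all. These letter matches are a description of the sequences and say nothing of what bound there.

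Cpb1 was at 0.0517 and 0.130 CPM in the spleen controls and at 222 and 180 CPM in the spleen cisplatin libraries, against 0.662 to 1.09 CPM in the 4 lung libraries. Its interaction was -10.44 ± 0.47 (adjusted p = 0.00911). Cela1 was at 15.7 and 14.4 CPM in the spleen controls and at 378 and 319 CPM in the spleen cisplatin libraries, with 2.02 and 2.08 CPM in the lung controls and 1.26 and 1.32 CPM in the lung cisplatin libraries. Its spleen rise was 4.53 ± 0.23 on the log2 scale (adjusted p = 0.00329) and its interaction -5.20 ± 0.28 (adjusted p = 0.0179). Both spleen cisplatin libraries stood far above all other libraries for these genes. Reg1 had no read in either spleen control and 35.4 and 38.6 CPM after cisplatin, which is at least 1523-fold higher than 3 reads in the summed control would give, and it stood at 0.286 to 0.578 CPM in the lung libraries (interaction adjusted p = 0.00911). Dmbt1 was at 0 and 0.0471 CPM in the spleen controls (4 reads in all), at 19.6 and 17.8 CPM after cisplatin, and at 0.930 to 1.59 CPM in lung (interaction -9.29 ± 0.64, adjusted p = 0.0489).

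The pancreatic acinar genes, to which Cpb1, Reg1 and Cela1 belong, encode enzymes and other proteins that the pancreas releases into the gut. Of 19 members tested, 17 rose in spleen, against 0.124% of all genes, and 0 changed in lung by edgeR (3 were higher and 2 lower in lung at an unadjusted p under 0.05, and DESeq2 called 1 higher). Their median spleen change was 12.11 on the fitted log2 scale, or 10.74 when the 7 members with 3 reads or fewer in the summed spleen control were held at the bound that 3 reads give. The median over all genes was -0.03 in spleen and 0.02 in lung, and the median of the list in lung was 0.41. Summed over the list, the level was 17.8 and 16.5 CPM in the spleen controls, 3121 and 2382 CPM in the spleen cisplatin libraries, and 4.84 to 6.36 CPM in the 4 lung libraries. Cela1 alone made up most of the sum in the spleen controls. In the summed controls 5 members had no read in spleen and 4 had none in lung. Cpa1, a carboxypeptidase, was at 257 and 190 CPM in the spleen cisplatin libraries. Pnlip, the pancreatic lipase, was at 393 and 233 CPM, and Ctrb1, a chymotrypsinogen, at 462 and 379 CPM. All 3 were under 0.11 CPM in both spleen controls. Of the 24 genes that rose in spleen, 17 were in this list, and the other 7 were Dmbt1, Pla2g1b, Tff2, Try4, Try5, Zg16 and 2210010C04Rik. The list does not hold every pancreatic gene, so these 7 are not shown to be of another kind. The trypsinogen, amylase and elastase genes have near-identical copies, so reads may be split among them. The list is a marker list of another organ, and its part in the other spleen values was not tested. In bulk tissue, a change in the cells or tissue sampled and a change in RNA per cell cannot be told apart. This holds for genes that rose and for genes that fell.

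Excision repair sequencing (XR-seq) of cisplatin-treated lung and spleen gave a second readout for these genes. XR-seq captures the DNA fragments that excision repair releases with an adduct, and its reads fall mostly on the transcribed strand (TS) of transcribed genes. Over all genes the TS held 90.0% and 89.7% of reads in the lung XR-seq libraries and 88.6% and 88.5% in the spleen ones. Over the pancreatic genes it held 27.8% (95% Wilson interval 24.3 to 31.7%, 564 reads) and 33.1% (31.1 to 35.3%, 1898 reads) in spleen, and 30.3% (28.5 to 32.2%) and 29.6% (27.5 to 31.9%) in lung. The 4 libraries thus spanned 27.8 to 33.1%, with spleen on both sides of lung. Their TS reads per 1000000 reads were 14.7 and 18.2 in spleen, both above the 11.7 and 11.5 in lung. Cela1 alone held 5.63 and 8.14 of these in spleen and 2.41 and 1.53 in lung. The higher spleen values are thus not shown for the list as a whole. Over the B cell genes the TS share was 84.5% in both spleen libraries and 59.4% and 59.9% in lung. These intervals cover counting error only.

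**Figure D1:**
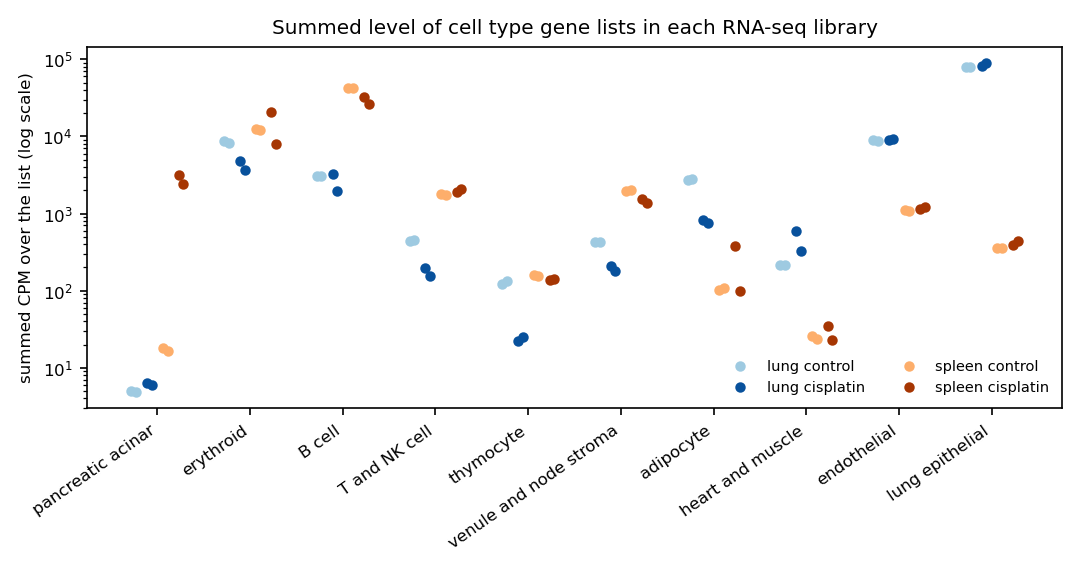
Summed CPM (log axis) of 10 cell type gene lists in each of the 8 RNA-seq libraries, 1 point per library, coloured by organ and treatment. The pancreatic genes stood at 3121 and 2382 CPM in the spleen cisplatin libraries and at 17.8 and 16.5 CPM in the spleen controls, and the T cell, thymocyte and adipocyte genes were lower in both lung cisplatin libraries than in the lung controls.

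In lung, the genes that fell included most genes of the B cell list, whose spleen levels showed a median change near 0. Of 20 B cell genes, 18 fell in lung, against 2.62% of all genes tested, and 0 changed in spleen (0 also at an unadjusted p under 0.05 and with DESeq2). Their median change was -1.95 in lung and -0.05 in spleen. No member passed the interaction test, but 19 of 20 had an unadjusted p under 0.05 with the lung change below the spleen change, and DESeq2 called 19. Cd79a, a chain of the B cell receptor, was at 77.6 and 78.1 CPM in the lung controls and 23.5 and 15.6 CPM after cisplatin. In spleen it was at 589 and 574 CPM in the controls and 781 and 766 CPM after cisplatin. It fell in lung by 2.01 ± 0.23 on the log2 scale (adjusted p = 0.0245), and its interaction was -2.40 ± 0.35 (adjusted p = 0.153). Ebf1, a transcription factor of B cell identity, went from 42.7 and 42.3 CPM to 7.56 and 5.16 CPM in lung (adjusted p = 0.0214), and was at 160 and 159 CPM in the spleen controls and 182 and 153 CPM in spleen after cisplatin. The exception in the list was Ighm, the IgM heavy chain, which was at 2141 and 2161 CPM in the lung controls and 3025 and 1755 CPM after cisplatin. Since Ighm makes up most of the reads of the list, the summed B cell level of lung did not separate the groups, with 3068 and 3102 CPM in the controls against 3281 and 1937 CPM. In spleen the sum did separate them, with 42809 and 42826 CPM in the controls against 32377 and 26309 CPM, as did Ighm itself, at 35075 and 35063 CPM against 25199 and 18518 CPM (adjusted p = 0.541). Ighd, the IgD heavy chain carried by naive B cells, did fall, from 154 and 156 CPM to 19.3 and 12.3 CPM in lung (-3.32 ± 0.26, adjusted p = 0.0195), with 687 to 813 CPM in all 4 spleen libraries.

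T cell and thymocyte genes also fell in lung. Of 24 T and NK cell genes, 15 fell in lung, against 2.62% of all genes, and 0 changed in spleen (edgeR; 2 higher in spleen at an unadjusted p under 0.05, and 1 by DESeq2), with medians of -1.44 in lung and 0.12 in spleen. No member passed the interaction test, whereas 17 did so at an unadjusted p under 0.05 and 15 with DESeq2, all with lung below spleen. Summed over the list, the lung controls had 445 and 455 CPM and the lung cisplatin libraries 196 and 155 CPM, against 1772 and 1745 CPM in the spleen controls and 1912 and 2087 CPM in spleen after cisplatin. Cd4, the co-receptor of helper T cells, fell from 27.6 and 27.9 CPM to 7.63 and 6.61 CPM in lung (-1.98 ± 0.15, adjusted p = 0.0191), and its 4 spleen libraries lay between 130 and 142 CPM. The 8 thymocyte genes were at 121 and 133 CPM in the lung controls and 22.5 and 25.1 CPM after cisplatin, and 5 of them fell in lung against the same 2.62%, while the spleen libraries had 137 to 159 CPM. Rag1, a recombinase of developing lymphocytes, was at 44.0 and 48.8 CPM in the lung controls, at 1.38 and 4.28 CPM in lung after cisplatin, and under 0.24 CPM in all spleen libraries. Dntt, the terminal transferase of the same cells, fell in lung from 15.2 and 16.6 CPM to 0.523 and 1.57 CPM (adjusted p = 0.0391). Both are genes of lymphocyte precursors.

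A gene of lymph node vessels had the most negative lung change of the genes named here. Glycam1, a ligand of L-selectin made by high endothelial venules, was at 155 and 159 CPM in the lung controls and at 0.349 and 0.0863 CPM after cisplatin. It was at 0.0918 to 1.41 CPM in the spleen libraries. Its lung fall was 9.86 ± 1.29 on the log2 scale (adjusted p = 0.0269), with an interaction of -12.08 ± 2.11 (adjusted p = 0.200). Madcam1, an adhesion molecule of mucosal venules and of the splenic marginal sinus, fell in lung from 0.868 and 0.623 CPM to 0.0388 and 0.0678 CPM (adjusted p = 0.0255), with 16.3 to 24 CPM in spleen. Of the 10 venule and lymph node stroma genes, 3 fell in lung, against 2.62% of all genes, and 0 changed in spleen (0 also at an unadjusted p under 0.05 and with DESeq2). Cd209b, a lectin of marginal zone and lymph node macrophages that was chosen after its values were seen, fell in lung from 12.1 and 12.3 CPM to 1.16 and 1.12 CPM (adjusted p = 0.0191), against 22.9 to 28.8 CPM in the 4 spleen libraries.

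Fat genes were also lower in the lung cisplatin libraries, with 1 library of spleen on the other side. The 12 adipocyte genes summed to 2762 and 2792 CPM in the lung controls and 833 and 757 CPM in lung after cisplatin. They summed to 103 and 108 CPM in the spleen controls and 384 and 99.4 CPM in spleen after cisplatin, so that only spleen cisplatin library 1 stood above its controls. The list had 1 gene that fell in lung, against 2.62% of all genes (4 lower at an unadjusted p under 0.05 and 2 with DESeq2), and 0 that changed in spleen (1 at an unadjusted p under 0.05, 0 with DESeq2), with medians of -2.76 in lung and 2.42 in spleen. Ucp1, the uncoupling protein of brown fat, was at 314 and 302 CPM in the lung controls and at 18.6 and 0.542 CPM after cisplatin, and did not pass the lung test (adjusted p = 0.195), the 2 cisplatin libraries lying far apart. Cidea, a lipid droplet protein of brown fat, fell in lung from 144 and 142 CPM to 10.4 and 6.51 CPM (adjusted p = 0.0294). A few metabolic genes outside the list were picked after their values were seen. Acacb, an acetyl-CoA carboxylase, fell in lung from 127 and 122 CPM to 15.5 and 15 CPM (-3.03 ± 0.22, adjusted p = 0.0191), and was at 16.1 to 25.9 CPM in spleen (interaction -3.42 ± 0.34, adjusted p = 0.110). Acaca fell from 228 and 225 CPM to 40.6 and 29 CPM (adjusted p = 0.0218), with 14.1 to 20.3 CPM in spleen. Gpd1, which links glycolysis to glycerolipids, fell from 573 and 545 CPM to 64.7 and 40.9 CPM (adjusted p = 0.0408). Ppp1r3b, a glycogen-targeting subunit, fell from 62.1 and 64.8 CPM to 12.9 and 12.4 CPM (adjusted p = 0.0191), with 7.26 to 7.86 CPM in all spleen libraries.

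Other tissues also differed between the treatment groups of lung. The 19 heart and skeletal muscle genes summed to 217 and 216 CPM in the lung controls and 595 and 326 CPM in the lung cisplatin libraries, against 22.6 to 34.3 CPM in spleen. Myh6, a heart myosin, was at 39.5 and 38 CPM in the lung controls and 97.7 and 77.4 CPM after cisplatin (adjusted p = 0.0572). Of the 18 heart and muscle genes tested, 0 were called in lung (2 higher at an unadjusted p under 0.05 and 2 with DESeq2). The T cell, thymocyte, venule and lymph node stroma, fat and heart sums thus each separated the lung control from the lung cisplatin libraries. The lung epithelial, endothelial, erythroid, DNA replication and heat shock sums did so as well, so this separation is not particular to the former lists. The part of the T cell, thymocyte, venule, fat and heart lists in the lung results was not tested. Genes of the lung's own cells had medians near 0 in lung. Of 25 lung epithelial genes 0 changed in lung, with a median of 0.08 (1 up and 1 down at an unadjusted p under 0.05, 0 with DESeq2). Their spleen median was 0.78, with 0 called (12 up and 2 down at an unadjusted p under 0.05, 8 up with DESeq2). Of 25 endothelial genes 0 changed in lung, with a median of -0.01 (6 up and 1 down unadjusted, 3 up with DESeq2). Over all genes tested, edgeR called 2.74% in lung and 0.14% in spleen, so 0 of 25 is near those shares. In either direction, 17% of all genes in lung and 9.88% in spleen had an unadjusted p under 0.05. DESeq2 called 10.1% and 2.69% of all genes. Sftpc, a surfactant protein of alveolar cells, was at 14646 and 14312 CPM in the lung controls and 17660 and 14243 CPM after cisplatin. In spleen, Sftpc was at 1.08 and 1.06 CPM in the controls and 3.8 and 3.07 CPM after cisplatin, and Scgb1a1, the secretoglobin of airway club cells, at 3.36 and 2.97 CPM against 9.35 and 11.9 CPM.

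Of the 506 genes that fell in lung, 497 had both lung changes below both spleen changes, against 31.2% of all genes tested, and 437 were in none of the 24 gene lists. Their median change was -1.57 in lung and -0.36 in spleen. In spleen, 352 of them were below control in both cisplatin libraries, 98 were above it in both and 56 lay on both sides. Because these genes were picked by their lung change, the counts describe the picked genes and are no test of the difference.

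**Figure D2:**
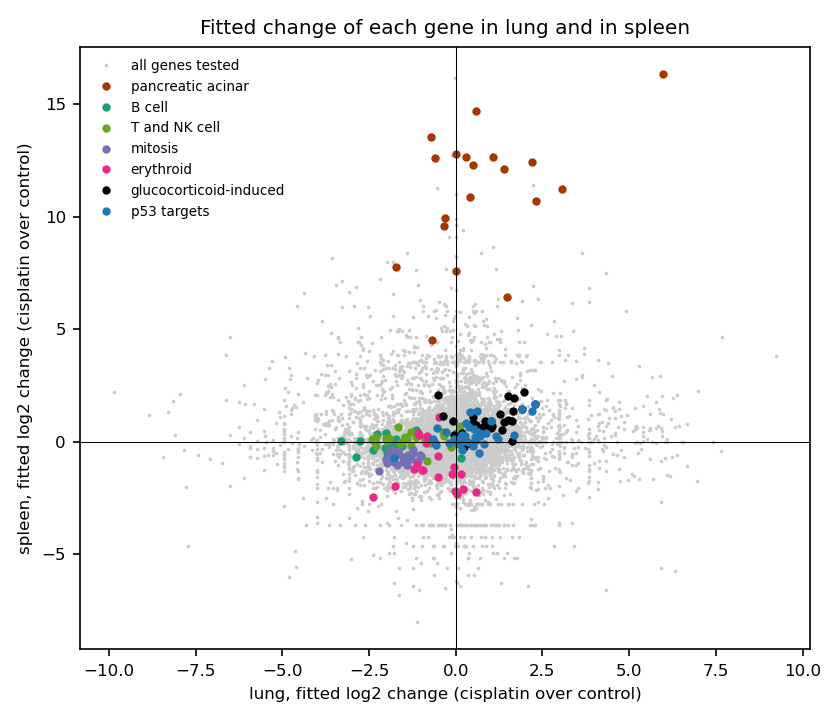
Fitted log2 change after cisplatin in lung (x axis) and spleen (y axis) for the 19285 genes tested, 1 point per gene, with 7 gene lists in colour. The pancreatic genes lay high on the spleen axis with a median of 12.11, the B cell and T and NK cell genes had lung medians of -1.95 and -1.44 with spleen medians of -0.05 and 0.12, and the glucocorticoid-induced genes had medians of 0.95 in lung and 0.91 in spleen, with single members of each list elsewhere. Fitted changes of genes with almost no reads in a control depend on the fit and are no bounds.

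Most mitosis genes fell in lung. All 30 of the list were below control in all 4 cisplatin libraries. Of these, 21 fell in lung, against 2.62% of all genes (30 lower both at an unadjusted p under 0.05 and with DESeq2), and 0 in spleen (20 lower in spleen at an unadjusted p under 0.05 and 8 with DESeq2), with medians of -1.68 in lung and -0.66 in spleen. Lung lay below spleen without overlap for 28 of the 30, against 6010 of all 19285 genes tested. No member passed the interaction test, while 18 had an unadjusted p under 0.05 and 7 passed with DESeq2, all with lung below spleen. Top2a, the topoisomerase of dividing cells, was at 74.5 and 77.7 CPM in the lung controls and 21.8 and 19.1 CPM after cisplatin, and at 266 and 272 CPM in the spleen controls and 210 and 196 CPM after cisplatin. Its lung fall was 1.92 ± 0.15 (adjusted p = 0.0195), its spleen change -0.44 ± 0.16 (adjusted p = 0.462), and its interaction -1.48 ± 0.23 (adjusted p = 0.17). Mki67, the Ki-67 proliferation marker, was at 60.2 and 63.2 CPM against 20.8 and 15.5 CPM in lung, and at 320 and 323 CPM against 186 and 166 CPM in spleen. Cenpe, a kinetochore motor protein, went from 15.4 and 15.6 CPM to 3.95 and 3.97 CPM in lung (adjusted p = 0.0214), and its spleen values were 62.3 and 62.8 CPM against 37.5 and 32.8 CPM. Of 30 DNA replication genes, 3 fell in lung, against 2.62% of all genes (13 lower at an unadjusted p under 0.05 and 8 with DESeq2), and 0 in spleen (3 lower at an unadjusted p under 0.05, 0 with DESeq2), with medians of -0.48 and -0.14.

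Genes induced by glucocorticoids were higher in most libraries of both organs. Of 30 genes, 25 were above control in both lung cisplatin libraries and 27 in both spleen ones, while 7536 and 6403 of all 19285 genes were. The medians of the list were 0.95 in lung and 0.91 in spleen, and its median interaction was 0.08. In lung 6 rose, against 0.119% of all genes (16 higher both at an unadjusted p under 0.05 and with DESeq2), and in spleen 0 (18 higher at an unadjusted p under 0.05 and 13 with DESeq2). Over all genes tested, 912 were higher in lung at that unadjusted p and 384 with DESeq2, and 710 and 238 in spleen. Cdkn1a, Ddit4 and Sesn1 are in this list and also among the p53 targets given below. Cdkn1a rose in lung and is counted in both lists, so their counts are not independent. Tsc22d3, the GILZ protein gene and a direct receptor target, was at 256 and 262 CPM in the lung controls and 630 and 848 CPM after cisplatin, and at 138 and 142 CPM against 425 and 763 CPM in spleen. Fkbp5, a co-chaperone of the receptor, was at 76.9 and 73.9 CPM against 119 and 240 CPM in lung, and at 94.9 and 93.9 CPM against 147 and 300 CPM in spleen. In both organs the 2 cisplatin libraries of Fkbp5 lay apart, with library 2 the higher, and neither organ passed (adjusted p = 0.344 and 0.537). Klf9, a receptor-induced repressor, was at 189 and 186 CPM against 324 and 351 CPM in lung and at 29.7 and 30.3 CPM against 55.7 and 61.1 CPM in spleen (interaction -0.08 ± 0.22).

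Per1 links this group to the circadian clock, being both a clock repressor and a glucocorticoid target. It was at 48.6 and 42.9 CPM in the lung controls and 138 and 118 CPM after cisplatin, a rise of 1.52 ± 0.21 (adjusted p = 0.0312). In spleen it was at 30.3 and 28.9 CPM against 51.4 and 66.6 CPM (0.98 ± 0.21, adjusted p = 0.279). Sgk1, a kinase induced by the same receptor, rose in lung from 132 and 128 CPM to 348 and 310 CPM (1.34 ± 0.16, adjusted p = 0.0246), and was at 60.6 and 58.9 CPM against 84.0 and 91.9 CPM in spleen. The promoters of Per1, Fkbp5 and Sgk1 are shown because these genes were higher in all 4 cisplatin libraries. Capitals mark the E-box CACGTG (the same on both strands), to which CLOCK and BMAL1 bind, in Per1 (chr11:69098699-69098998, plus strand) and Fkbp5 (chr17:28486100-28486399, minus strand). In Sgk1 (chr10:21993640-21993939, plus strand) they mark the full palindromic glucocorticoid response element, 6 bases on each side of a spacer of 3. CACGTG is also present, unmarked, near the beginning of the Sgk1 sequence.
Per1: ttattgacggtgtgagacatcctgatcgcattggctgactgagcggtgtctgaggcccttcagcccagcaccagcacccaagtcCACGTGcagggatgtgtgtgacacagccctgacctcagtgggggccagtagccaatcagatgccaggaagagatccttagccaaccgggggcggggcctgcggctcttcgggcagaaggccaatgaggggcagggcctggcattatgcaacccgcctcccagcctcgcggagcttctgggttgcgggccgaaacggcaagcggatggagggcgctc
Fkbp5: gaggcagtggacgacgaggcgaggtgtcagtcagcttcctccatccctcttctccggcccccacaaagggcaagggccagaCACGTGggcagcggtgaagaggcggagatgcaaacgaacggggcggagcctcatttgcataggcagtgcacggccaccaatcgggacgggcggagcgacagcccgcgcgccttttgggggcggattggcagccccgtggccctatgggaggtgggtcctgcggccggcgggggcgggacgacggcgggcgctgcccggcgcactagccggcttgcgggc
Sgk1: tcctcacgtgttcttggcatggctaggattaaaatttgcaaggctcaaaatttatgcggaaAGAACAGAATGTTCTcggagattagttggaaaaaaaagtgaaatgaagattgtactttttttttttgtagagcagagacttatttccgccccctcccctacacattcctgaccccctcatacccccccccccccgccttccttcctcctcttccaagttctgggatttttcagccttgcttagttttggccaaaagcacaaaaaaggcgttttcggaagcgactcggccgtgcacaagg
The E-box began 166 bases before the start in 1 of the 2 promoter entries of Per1 and 169 bases before it in Fkbp5, and the receptor element began 189 bases before a start of Sgk1, which has 6 promoter entries. CACGTG was in 7 of the 25 glucocorticoid-induced genes with a promoter entry and in 8.09% of all genes with an entry. Of the tested genes with an entry, 10.5% had it. That full element was in 1 of the 25 and in 3 of all 27025 genes. The sequences are from RefSeq on GRCm38.p6.

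Some members of this group leaned to 1 organ. Arrdc2, an arrestin-domain protein, rose in lung from 9.44 and 8.74 CPM to 25.7 and 28.9 CPM (1.61 ± 0.20, adjusted p = 0.0255), and was at 18.4 to 20.7 CPM in all 4 spleen libraries. Its interaction was 1.55 ± 0.27 (adjusted p = 0.200). Cebpd, a transcription factor of the acute response, rose in lung from 52.6 and 50.6 CPM to 122 and 148 CPM (adjusted p = 0.0363). The opposite lean was seen for Pdk4, a kinase that turns off pyruvate oxidation in fasting, and Cxcr4, a chemokine receptor that retains lymphocytes. Pdk4 was at 169 and 171 CPM in the lung controls and 104 and 138 CPM after cisplatin, but at 16.2 and 15.5 CPM against 51.8 and 84.2 CPM in spleen (interaction -2.58 ± 0.47, adjusted p = 0.202). Cxcr4 was at 41.9 CPM in both lung controls and 37.6 and 28.2 CPM after cisplatin, and at 127 and 124 CPM against 251 and 317 CPM in spleen (interaction -1.52 ± 0.32, adjusted p = 0.258). These 2 genes did not pass in either organ or in the interaction.

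Of 40 p53 targets, 29 were above control in both lung cisplatin libraries and 27 in both spleen ones. Of all 19285 genes tested, 7536 and 6403 were. The medians of the p53 targets were 0.37 in lung and 0.18 in spleen. Cdkn1a and Pmaip1 rose in lung, against 0.119% of all genes (12 were higher and 2 lower at an unadjusted p under 0.05, and 11 higher and 1 lower with DESeq2), and 0 changed in spleen (7 higher at an unadjusted p under 0.05 and 3 with DESeq2). Over all genes tested, the unadjusted counts were 912 higher and 2371 lower in lung and 710 higher in spleen. DESeq2 called 384 higher and 1570 lower in lung and 238 higher in spleen. Pmaip1 encodes NOXA, a protein that starts apoptosis, and went from 15.7 and 17.3 CPM to 47.3 and 61 CPM in lung (1.68 ± 0.23, adjusted p = 0.0279). In spleen it was at 48.4 and 52.8 CPM against 61.6 and 67.9 CPM, so the lung reached the spleen level only after cisplatin (interaction 1.38 ± 0.30, adjusted p = 0.265). Trp53inp1, a p53 cofactor, was at 147 and 157 CPM against 293 and 426 CPM in lung and at 513 and 531 CPM against 562 and 607 CPM in spleen (interaction 1.09 ± 0.36, adjusted p = 0.424). Fas, a death receptor, was at 52.6 and 54.4 CPM against 83.5 and 156 CPM in lung and at 27.3 and 28.6 CPM against 30.1 and 38.3 CPM in spleen. Mdm2, which returns p53 to low levels, was at 80.4 and 82.1 CPM against 105 and 128 CPM in lung and at 107 and 111 CPM against 94.4 and 102 CPM in spleen (interaction 0.70 ± 0.26, adjusted p = 0.465). The lung libraries of Mdm2 were above and the spleen libraries below their controls, within a change that passed in neither organ.

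Among the other genes that the study names, Sirt1, Adamts1 and Ciart had both lung changes above both spleen changes. Sirt1, a deacetylase, was at 37.7 and 38.4 CPM against 71.2 and 67.6 CPM in lung and at 55.2 and 57.6 CPM against 61.3 and 67.6 CPM in spleen. Adamts1, a secreted protease, was at 51.9 and 54.9 CPM against 107 and 92.8 CPM in lung and at 9.80 to 11.5 CPM in all spleen libraries. Ciart, a repressor of the clock, was at 3.62 and 2.91 CPM against 8.97 and 8.98 CPM in lung and at 2.22 and 2.34 CPM against 3.45 and 3.26 CPM in spleen. None of the 3 passed a test in either organ. Id1, Fzd4 and Sik1 were above control in all 4 cisplatin libraries, with interactions of 0.46 ± 0.42, 0.21 ± 0.35 and -0.03 ± 0.29. Of the 20 clock genes tested, Per1 was the one that rose in lung, against 0.119% of all genes, and 0 changed in spleen (1 higher at an unadjusted p under 0.05 and 1 with DESeq2).

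Atp7b, a copper pump that also carries platinum out of cells, had the largest interaction of the genes the study names. It was at 44.2 and 44.1 CPM in the lung controls and 66.6 and 78.9 CPM after cisplatin, and at 5.24 and 5.72 CPM against 1.49 and 1.02 CPM in spleen. All 4 libraries moved away from control in opposite directions, and the interaction was 2.93 ± 0.37 (adjusted p = 0.135). Steap3, an endosomal metal reductase, was at 18.6 and 19.2 CPM against 16.6 and 11.1 CPM in lung and at 23.1 and 21.9 CPM against 9.78 and 6.39 CPM in spleen, lower in both organs (interaction 1.02 ± 0.51, adjusted p = 0.561).

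**Figure D3:**
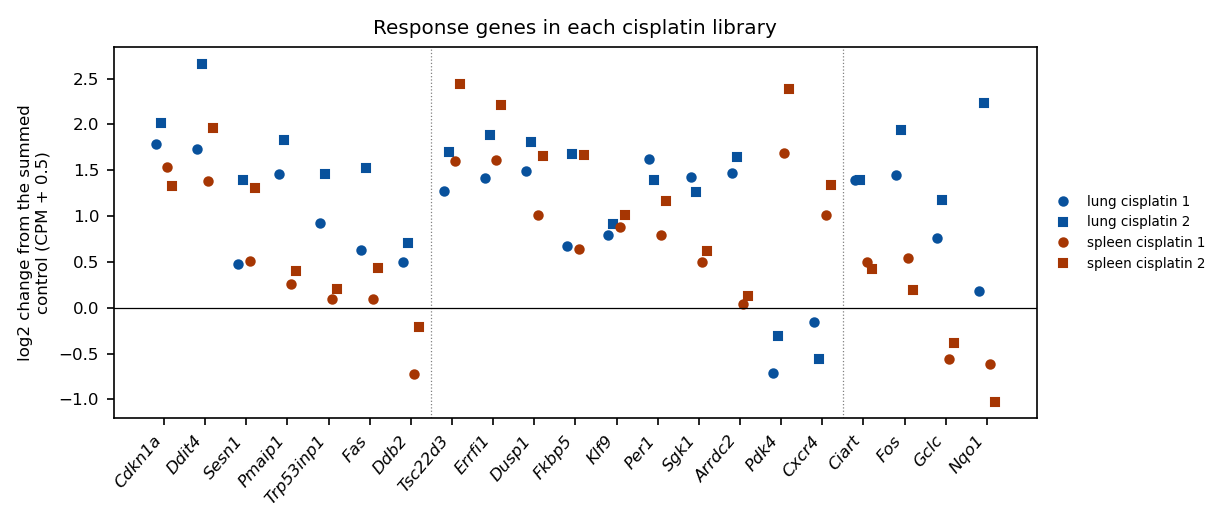
Log2 change from the summed control (CPM + 0.5) in each cisplatin library for p53 targets (left), glucocorticoid-induced genes (middle) and other response genes (right), with lung in blue, spleen in brown and the library number by marker. Arrdc2 stood at 1.47 and 1.64 in lung and 0.04 and 0.13 in spleen, whereas Klf9 lay between 0.79 and 1.01 in all 4 libraries.

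In 4 genes of RNA processing the lung and spleen values lay apart, and 1 of them, Srsf5, passed a test. Srsf5, a splicing factor, rose in lung from 140 and 144 CPM to 391 and 436 CPM (1.53 ± 0.19, adjusted p = 0.0246), and was at 462 and 472 CPM against 381 and 451 CPM in spleen (interaction 1.73 ± 0.25, adjusted p = 0.152). Clk1, a kinase of splicing factors, was at 65.0 and 67.5 CPM against 148 and 178 CPM in lung and at 314 and 323 CPM against 191 and 276 CPM in spleen. Neat1, the long non-coding RNA of nuclear paraspeckles, was at 158 and 165 CPM against 413 and 577 CPM in lung and at 324 and 330 CPM against 169 and 239 CPM in spleen (interaction 2.32 ± 0.42, adjusted p = 0.200). Ddx5, an RNA helicase named by the study, was at 698 and 719 CPM against 1188 and 1259 CPM in lung and at 1917 and 1990 CPM against 1365 and 1696 CPM in spleen (interaction 1.16 ± 0.25, adjusted p = 0.261). In these 4 genes the lung controls were the lowest libraries of the 8. Srsf5, Clk1 and Neat1 were chosen after their values were seen. By contrast Cirbp, a cold-inducible RNA-binding protein, had changes of similar size in both organs, from 33.7 and 32.2 CPM to 90.6 and 90.0 CPM in lung (1.46 ± 0.16, adjusted p = 0.0218) and from 58.6 and 57.3 CPM to 155 and 149 CPM in spleen (1.37 ± 0.16, adjusted p = 0.0790), with an interaction of 0.09 ± 0.21. Of the 23 genes that rose in lung, 19 were above control in both spleen cisplatin libraries, against 33.2% of all genes, and 21 had both lung changes above both spleen changes, against 31.5%. They were picked by their lung rise, so these counts describe them and test nothing.

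No gene passed the tests of both organs and of the interaction with opposite signs by edgeR. At an unadjusted p under 0.05 in all 3 tests there were 61 such genes, 29 of them up in lung, and DESeq2 called 12. As a description by size, genes of at least 5 CPM on average in both organs (10366 genes) were counted as opposite when every cisplatin library had moved by at least 0.4 on the log2 scale, upward in one organ and downward in the other. There were 19 such genes up in lung (0.183%, 3 of them immunoglobulin segments) and 20 down in lung (0.193%). Of these, 8 up in lung and 7 down in lung are given, from those whose smallest library change was largest, chosen after their values were seen.

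Up in lung and down in spleen were Firre, Xist, Ttc14, Gpr137c, Zfc3h1, Gdpd2, Aqp1 and Sned1. Firre and Xist are long non-coding RNAs of the X chromosome, which organise chromatin and silence 1 X in females. Xist was at 119 and 124 CPM against 172 and 215 CPM in lung and at 981 and 1011 CPM against 353 and 572 CPM in spleen (interaction 1.81 ± 0.44, adjusted p = 0.311). No source states that the libraries kept strand, so reads of Xist and of its antisense partner cannot be told apart. Firre was at 9.94 and 10.8 CPM against 21.9 and 31.8 CPM in lung and at 16.6 and 16.4 CPM against 5.46 and 9.29 CPM in spleen (interaction 2.53 ± 0.55, adjusted p = 0.269). Aqp1, the water channel of capillaries and red cells, was at 1179 and 1163 CPM against 1666 and 1661 CPM in lung and at 114 and 112 CPM against 74.0 and 47.0 CPM in spleen. Ttc14 and Zfc3h1, of which the latter acts in nuclear RNA decay, had interactions of 1.59 ± 0.30 and 1.48 ± 0.41.

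Down in lung and up in spleen were Cyp2e1, Cd3d, H2-Oa, Dusp2, Fscn1, Pnpla2 and Slc25a20. Dusp2, a MAP kinase phosphatase of activated lymphocytes, fell in lung from 8.75 and 8.62 CPM to 4.11 and 4.05 CPM (-1.09 ± 0.14, adjusted p = 0.0268) and was at 66.9 and 64.0 CPM against 114 and 116 CPM in spleen (0.80 ± 0.15, adjusted p = 0.256). The 2 libraries of each group were close for Dusp2, and its interaction was -1.89 ± 0.20 (adjusted p = 0.110). H2-Oa, a class II chaperone chain of B cells, fell in lung from 11.9 and 11.2 CPM to 5.21 and 3.86 CPM (adjusted p = 0.0345) and was at 81.1 and 77.6 CPM against 134 and 127 CPM in spleen. Cd3d, a chain of the T cell receptor complex, fell in lung from 21.5 and 17.7 CPM to 5.64 and 6.09 CPM (adjusted p = 0.0218) and was at 65.7 and 69.9 CPM against 115 and 106 CPM in spleen. Cyp2e1, an enzyme of liver and fat, rested on spleen cisplatin library 1, which was at 30.6 CPM against 2.70 CPM in library 2 and 1.91 and 1.23 CPM in the controls. Pnpla2, the main fat cell lipase, was at 333 and 311 CPM against 216 and 153 CPM in lung and at 65.3 and 62.0 CPM against 107 and 93.3 CPM in spleen. The adipocyte list was higher in spleen cisplatin library 1 alone, as given above, and the part of fat in these values was not tested.

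**Figure D4:**
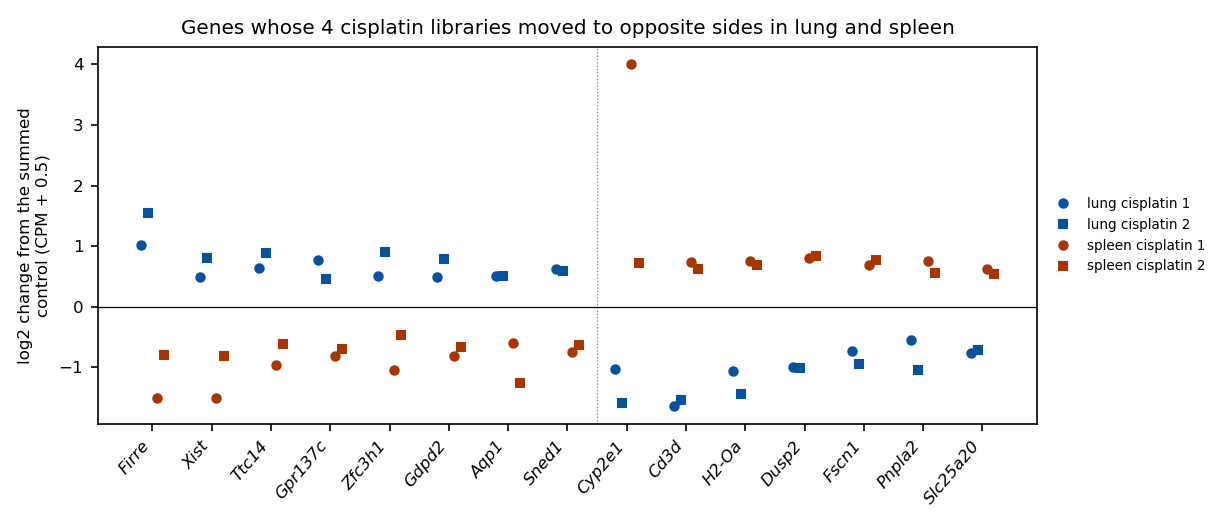
Log2 change from the summed control (CPM + 0.5) in each cisplatin library for the 8 genes up in lung and down in spleen (left) and the 7 down in lung and up in spleen (right), chosen by these values. Dusp2 stood at -0.99 and -1.01 in lung and 0.81 and 0.83 in spleen, and Cyp2e1 at 4.00 and 0.72 in spleen.

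Erythroid genes, which in the mouse are active in spleen, varied with the library. Of 19 tested, 14 were below control in both spleen cisplatin libraries and 12 in both lung ones. The counts over all 19285 genes tested were 7237 and 7328. The median change of the erythroid list was -1.24 in spleen and -0.52 in lung. None passed in either organ (9 lower in spleen at an unadjusted p under 0.05 and 2 with DESeq2, and 0 in lung by either). Klf1, the erythroid master regulator, was at 25.4 and 27.1 CPM in the spleen controls and 9.29 and 1.72 CPM after cisplatin, and under 0.2 CPM in lung. Tfrc, the transferrin receptor, was at 157 and 161 CPM against 83.8 and 64.3 CPM in spleen and at 101 and 105 CPM against 96.0 and 104 CPM in lung (interaction 1.08 ± 0.30, adjusted p = 0.353). Tal1, a factor of blood and vessel progenitors, was at 49.2 and 48.9 CPM against 17.7 and 12.6 CPM in spleen, and at 20 and 18.9 CPM against 28.5 and 26.4 CPM in lung (interaction 2.23 ± 0.35, adjusted p = 0.184). The globins did not follow, since Hbb-bs was at 7453 and 7165 CPM in the spleen controls and 13342 and 5010 CPM after cisplatin. In lung it was at 5932 and 5679 CPM against 3108 and 2411 CPM.

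Stress lists with mixed members are given by their counts. Of the 33 immediate-early genes tested, 2 (Dusp2 and Egr3) fell in lung, against 2.62% of all genes. At an unadjusted p under 0.05, 13 were higher and 5 lower in lung, against 17% of all genes in either direction. DESeq2 called 11 higher and 3 lower, against 10.1%, and the lung median was 0.43. In spleen 0 changed (10 higher at an unadjusted p under 0.05 and 7 with DESeq2, against 9.88% and 2.69% of all genes in either direction). Fos was at 15.6 and 14.5 CPM against 41.3 and 58.4 CPM in lung and at 6.59 and 6.16 CPM against 9.40 and 7.29 CPM in spleen. Of 24 metallothionein and NRF2 targets, 1 fell in lung, against 2.62% of all genes. It was Tkt, a pentose phosphate enzyme at 551 and 524 CPM against 195 and 160 CPM in lung (adjusted p = 0.0227) and 247 to 282 CPM in spleen. Gclc, which makes the precursor of glutathione, was at 228 and 235 CPM against 394 and 526 CPM in lung and at 69.2 and 66.9 CPM against 45.6 and 51.7 CPM in spleen (interaction 1.48 ± 0.32, adjusted p = 0.262). Of the 24 macrophage and neutrophil genes, 2 fell in lung, against 2.62% of all genes. The list was mixed in lung, with 4 higher and 6 lower at an unadjusted p under 0.05, against 17% of all genes. DESeq2 called 2 higher and 4 lower in lung, against 10.1%. In the interaction, 6 members had lung below spleen and 0 above, both at that unadjusted p and with DESeq2. Over all genes tested, 1309 were below and 658 above at that p, and 577 below and 126 above with DESeq2. The median interactions of the NF-kB targets, interferon-stimulated genes, heat shock chaperones, plasma cell, megakaryocyte and fibroblast genes were -0.40, 0.01, -0.01, 0.24, 0.20 and -0.46, beside 0.01 over all genes, and edgeR called 0 of their members in either organ. At an unadjusted p under 0.05, 16 of these 113 members (14.2%) passed in lung and 14 (12.4%) in spleen, against 17% and 9.88% of all genes. DESeq2 called 9 (7.96%) and 8 (7.08%), against 10.1% and 2.69% of all genes.

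The median change differed by gene span in both organs. Among 13943 protein-coding genes of at least 1 CPM on average, those with a span of 200 kb or more (718 genes) had median changes of -0.84 and -0.79 in the lung cisplatin libraries and -0.61 and -0.42 in the spleen ones. Genes under 20 kb had medians of 0.16 and 0.08 in lung and 0.12 and 0.10 in spleen. The order over the 4 classes of span was the same in all 4 libraries. In lung, 22.6% of the genes of 200 kb or more fell, against 3.5% of all in this set, and the median span of genes that fell in lung was 102 kb, against 24.8 kb for all. In spleen, 1 gene of 200 kb or more fell. The median interaction was -0.29 for genes of 200 kb or more and 0.01 for all, and spleen cisplatin library 2 was the one furthest from lung.

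Dock1 and Dennd1a, long genes that the study names, were lower in all 4 cisplatin libraries. Dock1, a regulator of Rac, was at 84.7 and 87.7 CPM against 25.0 and 24.5 CPM in lung (-1.82 ± 0.16, adjusted p = 0.0214) and at 19.6 and 19.5 CPM against 5.95 and 6.93 CPM in spleen (-1.63 ± 0.16, adjusted p = 0.0517), with an interaction of -0.19 ± 0.24. Dennd1a, an endocytic exchange factor, was at 27.4 and 26.3 CPM against 9.30 and 7.35 CPM in lung and at 34 and 30.9 CPM against 15.4 and 14.5 CPM in spleen (interaction -0.57 ± 0.30, adjusted p = 0.588). Ptprm, a receptor phosphatase of endothelium, fell in both organs, from 157 and 159 CPM to 61.8 and 60.5 CPM in lung (adjusted p = 0.0319) and from 21.2 and 21.8 CPM to 4.24 and 5.91 CPM in spleen (adjusted p = 0.0462). The other genes that fell in spleen were the immunoglobulin light chain segments Igkv9-120 and Igkv10-96. Igkv9-120 went from 1312 and 1361 CPM to 41.2 and 53.6 CPM in spleen and from 76.6 and 80.8 CPM to 3.58 and 2.95 CPM in lung, lower in both organs by a similar amount. Immunoglobulin segments share sequence with one another, and their reads may be split among copies.

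**Figure D5:**
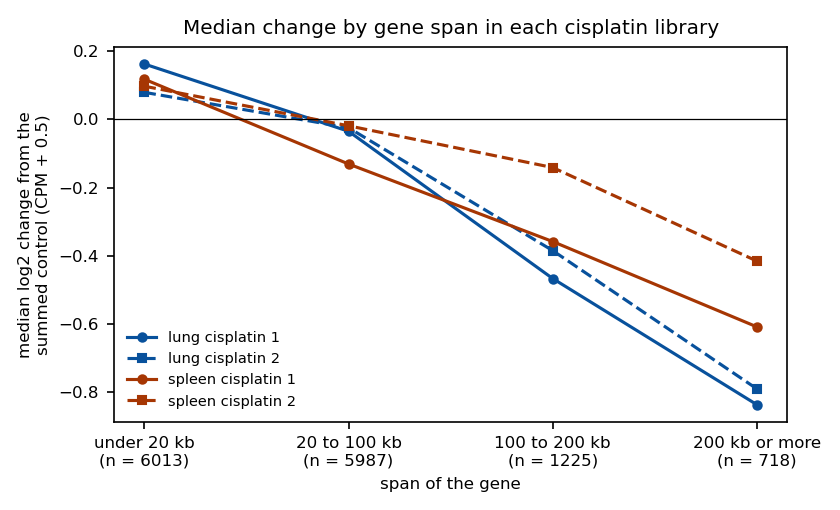
Median log2 change from the summed control (CPM + 0.5) by class of gene span for each cisplatin library, lung in blue and spleen in brown, with the number of protein-coding genes per class under the axis. Genes of 200 kb or more lay at -0.84 and -0.79 in lung and at -0.61 and -0.42 in spleen.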

How the data were processed

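RNA was poly-A selected and read as 50-bp pairs. Per the labels and the study's methods, the authors aligned reads to mm10 with STAR, removed reads of mapping quality under 20, mapped to over 10 positions or with pairs over 500 kb apart, and deposited raw counts per gene from featureCounts, and likewise raw XR-seq counts on each strand. Versions are not given in the sources used here. Of 25059 genes, 25041 were found in GENCODE M21.

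The counts were fitted in R 4.3.3 with edgeR 4.0.16 (filterByExpr by group, TMM, quasi-likelihood) as 6 samples in 4 groups, the control pairs being summed because they differed so little, with 2 residual degrees of freedom. Calls had a Benjamini-Hochberg adjusted p under 0.05 over all genes tested. The script was tested on simulated data. DESeq2 1.42.0, other scaling, no filter, a test against 0.4, all 4 organs, every library singly, a replicate block and leaving out each library were alternatives. CPM is per 1000000 reads on genes, and size descriptions added 0.5 CPM. The members and lists were chosen with earlier results of these data known. Named genes were the called genes, the first 3 of selected lists and those the study names, and all others were chosen after their values were seen. Damage-seq was not used, and 1 gene with opposite values is not reported here.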

Additional observations from a re-analysis of the deposited data

Results flagged for a closer look

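The responses of 4 genes differed between lung and spleen by the edgeR interaction test, all with the lung change below the spleen change. The difference on the log2 scale was -10.44 for Cpb1, -14.10 for Reg1, -9.29 for Dmbt1 and -5.20 for Cela1. Reg1 had no read in the spleen controls, so its fitted value depends on the fit and is no bound.

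In 15 genes every lung cisplatin library moved one way and every spleen cisplatin library the other, and none of these differences passed the interaction test by edgeR. The lung minus spleen difference was 2.53 for Firre, 1.81 for Xist, 1.59 for Ttc14, 1.49 for Gpr137c, 1.48 for Zfc3h1, 1.44 for Gdpd2, 1.42 for Aqp1 and 1.36 for Sned1. It was -4.81 for Cyp2e1, -2.33 for Cd3d, -2.05 for H2-Oa, -1.89 for Dusp2, -1.56 for Fscn1, -1.43 for Pnpla2 and -1.31 for Slc25a20. These 15 were picked by their values from the 19 genes up in lung and 20 down in lung of this kind.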

How the results depend on the processing

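The counts rest on how the spread was estimated. The number of genes with different responses, changed in lung, changed in spleen and opposite was 2044, 4247, 1904 and 93 with every library counted as a replicate, 1535, 3815, 1181 and 55 when a replicate block was added to that fit, 703, 1954, 519 and 12 with DESeq2, and 181, 1217, 129 and 3 without the filter on low counts. With the spread from all 4 organs, 2 genes differed and 123 changed in lung, and against a difference of 0.4, 269 changed in lung. Leaving out 1 library gave 0 to 151 different, 0 to 963 in lung, 25 to 119 in spleen and 0 to 6 opposite. Without either lung cisplatin library, 0 genes differed and 0 changed in lung (1715 and 1276 differed at an unadjusted p under 0.05). Without spleen cisplatin library 1 the counts were 17, 963 and 82, and without library 2 they were 151, 958, 119 and 6. The cause was not tested. Replicate numbers are shared only as numbers: deviations of the 2 replicates correlated at 0.365 between the cisplatin pairs of the organs, 0.0961 between control and cisplatin in lung and 0.260 in spleen, over 13739 genes. Of 2010 values of single genes under the alternatives, 1639 kept their direction and side of the threshold, 231 newly passed, 131 no longer passed and 9 turned sign. Those 9 were interactions near 0. Fkbp5 was -0.0039 with every library a replicate and -0.0123 with the block, and leaving out 1 library gave -0.5704 to 0.627 for Fkbp5, -0.2084 to 0.1773 for Sik1, -0.0296 to 0.4057 for Fzd4 and -0.0257 to 0.6578 for Igkv10-96. With 2 libraries per treated group, a difference that did not pass is not shown to be absent.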
